A study of Mus musculus with 16 samples.

Results

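The expression of 35 microglia genes was examined in RNA-seq libraries of the hypothalamus of 16 female C57BL/6 mice. Microglia are the resident immune cells of the brain parenchyma and a reported cell target of minocycline, a tetracycline antibiotic that enters the brain. The members were taken by gene symbol as homeostatic and activation genes of microglia, not by a cut-off on their values. Earlier results of these data were known when they were chosen. Each of the 35 had 1 row in both deposited tables, out of 16196 genes listed in either, so none was lost to a filter on low values. The OLZ+MINO mice received olanzapine, an antipsychotic drug, in the diet at 54 mg/kg and minocycline in the drinking water at 0.6 mg/ml. The OLZ mice received only the olanzapine diet, the MINO mice only the minocycline water, and the CTRL mice neither drug. All 4 groups, CTRL included, ate a diet that drew 45% of its kcal from fat, beginning at 10 weeks of age, and were killed after 12 weeks of it. Each group held 4 mice, and 1 library was made from the hypothalamus of each mouse.

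Microglia derive from yolk sac progenitors and depend on signalling through the receptor Csf1r, whose ligands are Csf1 and Il34. In the healthy brain they sample their surroundings through purinergic and chemokine receptors, make most of the C1q of the tissue, and clear debris through Fc receptors and the Trem2 and Tyrobp receptor complex. In the hypothalamus they are known to respond to dietary fat. The genes were read here in 10 groups by role, which were transcription factors, purinergic and chemokine receptors, growth factor receptors, other homeostatic genes, C1q chains, adaptors with their receptors, leukocyte membrane proteins, lysosomal genes, Toll-like receptors and the actin-binding protein gene Aif1.

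The values were scaled counts, that is read counts per gene multiplied by a factor for each library and rounded. OLZ+MINO, OLZ and CTRL libraries were in one table of 15983 genes and MINO and CTRL libraries in another of 16005, with totals of 8435016 to 9447616 scaled counts a library. The CTRL libraries are the same mice in both tables, and their values differed between the tables by a factor of 1.0048 to 1.00615. Differences were tested with limma on log2(scaled count + 1) over all genes of a table, and a gene was called at a Benjamini-Hochberg adjusted p under 0.3. The study put the same figure on a false discovery rate without saying of which kind. Its methods name a local rate, which is a different quantity from an adjusted p, and a q value. At an adjusted p under 0.3 up to about 3 in 10 calls over a table are expected to be false. Values at 0.05 are given beside it. Comparisons of OLZ with CTRL and of OLZ+MINO with OLZ share the 4 OLZ libraries, and those of OLZ, OLZ+MINO and MINO with CTRL share the CTRL mice, so they are not independent of one another. The share of reads from mitochondrial ribosomal RNA was 10.4 to 11.2% in OLZ+MINO and 7.08 to 8.06% in OLZ libraries, against 6.24 to 7.87% in CTRL libraries. It was 9.12 to 11.8% in MINO libraries. With libraries scaled to equal totals without mitochondrial genes, 5 members were called higher in OLZ against CTRL, where the main fit called 2. Over the table, 694 genes were then called higher, where the main fit called 291. The median log2 fold change of all genes moved from 0.00 to 0.06. In OLZ+MINO against OLZ 12 members were called lower in either fit. Of the table, 1172 genes were called lower after the rescaling and 1016 in the main fit. Beyond this rescaling, the part of mitochondrial ribosomal RNA in the results was not tested.

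In the CTRL hypothalamus the microglia genes were measured at mean scaled counts of 11 for Spi1 to 456 for Csf1r. Of the 35, 16 averaged below 50, where a difference of a few reads moves the fold change. Per kilobase of exon, Ctss, a lysosomal protease that microglia express strongly, was the most abundant at 267 ± 50.9 scaled counts per kb (SD, n = 4 CTRL mice). C1qa followed at 156 ± 30.6, C1qb at 134 ± 6.02, Csf1r at 79.0 ± 4.10, C1qc at 78.6 ± 22.3 and P2ry12 at 74.0 ± 9.31 scaled counts per kb. The levels of C1qa and C1qb, and those of Csf1r, C1qc and P2ry12, did not differ beyond their spread. Ptprc was lowest per kb of exon, at 1.77 ± 0.65. The length used was the union of all annotated exons of a gene, 18313 bases for Ptprc. Its place is therefore not a ranking of mRNA abundance. Markers that would tell other immune cells apart were low or not listed. Of 11 markers of blood monocytes and neutrophils only Mmp9 was listed in the table of 3 groups, and of 9 lymphocyte markers none. Of 14 markers of the macrophages of brain borders 8 were listed, summing to 210 to 240 scaled counts in OLZ+MINO, 223 to 420 in OLZ and 201 to 255 in CTRL libraries. The 35 microglia genes summed to 3064 to 3524 scaled counts in OLZ+MINO, 3856 to 4264 in OLZ and 3277 to 3643 in CTRL libraries. In bulk tissue, fewer microglia and less RNA of these genes per microglial cell cannot be told apart.

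**Figure D1:**
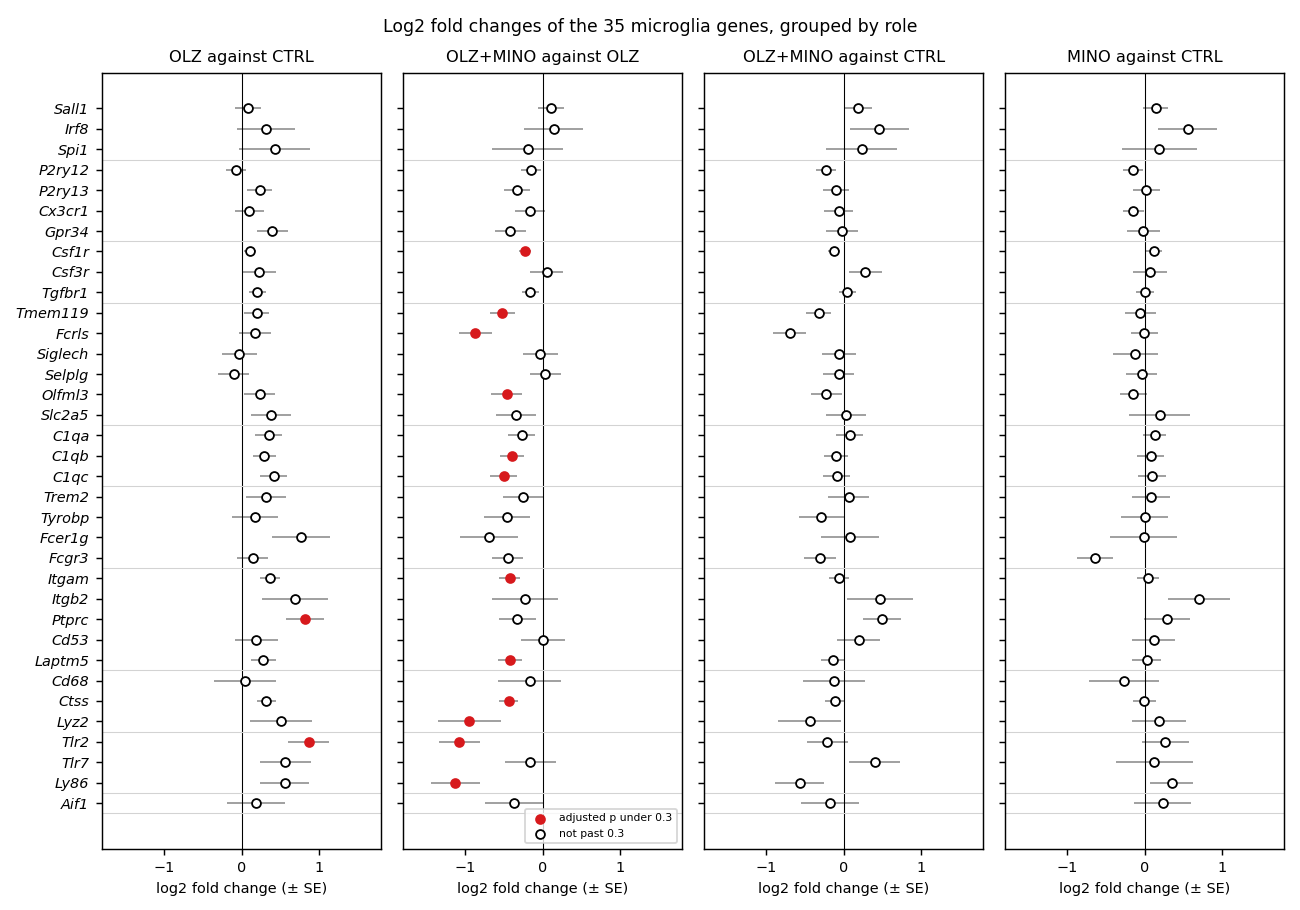
Log2 fold changes of the 35 microglia genes in the 4 comparisons, on the log2(scaled count + 1) scale, with bars of 1 SE. Genes are grouped by role, and filled points mark an adjusted p under 0.3. In OLZ against CTRL 32 of the 35 points lie above 0 and 2 are filled, in OLZ+MINO against OLZ 30 lie below 0 and 12 are filled, and in the comparisons of OLZ+MINO and MINO with CTRL none is filled.

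Promoters of 5 of the microglia genes that fell in OLZ+MINO against OLZ are shown because PU.1, the product of Spi1, is known to drive many microglia genes through a purine-rich box around GAGGAA. RefSeq promoter windows of GRCm38.p6, from 250 bases before to 50 after the start of the gene, were matched by symbol for 26 of the 35 members. The letters GAGGAA, searched on both strands, were in the window of 16 of these 26 (61.5%), against 31.3% of 27025 genes with a window. The longer form GAGGAAGT, which contains it, was found in 3 of the 26 (11.5%), C1qc, Cd53 and Ctss, against 3.69% of genes. Of the 12 members called lower in OLZ+MINO against OLZ, 10 had a window. The box was in 6 of these, Ctss, Itgam, C1qb, C1qc, Fcrls and Laptm5, and not in the other 4, Tlr2, Ly86, Lyz2 and Olfml3. Of the other 23 members 16 had a window and 10 held it. A match of letters is a description and not evidence of binding. The windows of 4 of the genes with the box, Ctss, Itgam, C1qb and C1qc, and of 1 without it, Tlr2, read as follows, 5′ to 3′ on the strand of the gene, with GAGGAA or its reverse complement in capitals.
Ctss (chr3:95526536-95526835, plus strand): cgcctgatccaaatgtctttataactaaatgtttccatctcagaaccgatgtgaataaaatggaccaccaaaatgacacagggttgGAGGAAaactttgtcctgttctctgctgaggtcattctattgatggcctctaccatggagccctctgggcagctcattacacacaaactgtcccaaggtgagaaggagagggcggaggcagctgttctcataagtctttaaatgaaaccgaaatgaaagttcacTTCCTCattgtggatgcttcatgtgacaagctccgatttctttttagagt
Itgam (chr7:128062390-128062689, plus strand): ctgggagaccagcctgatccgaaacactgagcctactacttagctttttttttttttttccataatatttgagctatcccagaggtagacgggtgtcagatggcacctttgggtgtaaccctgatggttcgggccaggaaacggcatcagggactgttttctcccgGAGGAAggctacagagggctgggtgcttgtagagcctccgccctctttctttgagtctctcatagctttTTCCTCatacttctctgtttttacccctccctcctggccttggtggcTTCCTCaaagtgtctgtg
C1qb (chr4:136886151-136886450, minus strand): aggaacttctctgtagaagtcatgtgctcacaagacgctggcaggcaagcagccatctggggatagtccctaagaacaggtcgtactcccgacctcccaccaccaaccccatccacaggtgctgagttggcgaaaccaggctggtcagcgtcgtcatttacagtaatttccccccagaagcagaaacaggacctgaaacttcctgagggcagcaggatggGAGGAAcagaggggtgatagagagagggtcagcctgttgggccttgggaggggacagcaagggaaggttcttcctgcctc
C1qc (chr4:136892865-136893164, minus strand): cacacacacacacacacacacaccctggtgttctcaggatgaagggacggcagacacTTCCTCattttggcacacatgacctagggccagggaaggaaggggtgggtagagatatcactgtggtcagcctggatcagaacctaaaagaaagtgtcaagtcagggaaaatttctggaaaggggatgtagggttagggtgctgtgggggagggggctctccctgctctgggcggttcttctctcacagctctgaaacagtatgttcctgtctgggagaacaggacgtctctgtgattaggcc
Tlr2 (chr3:83841559-83841858, minus strand): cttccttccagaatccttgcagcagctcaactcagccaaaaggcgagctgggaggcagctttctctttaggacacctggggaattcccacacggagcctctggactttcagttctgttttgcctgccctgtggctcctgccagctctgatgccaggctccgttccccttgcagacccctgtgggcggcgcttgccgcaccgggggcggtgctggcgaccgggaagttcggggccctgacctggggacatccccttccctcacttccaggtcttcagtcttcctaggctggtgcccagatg

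Ctss held the box in both directions, 164 bases before the start and at the start itself. In Itgam it was found 84 and 15 bases before the start and 33 bases after it. C1qb held it 30 bases and C1qc 193 bases before the start. C1qb and C1qc lie beside each other and next to C1qa on chromosome 4 of GRCm38, on the minus strand, with C1qb at 136880129 to 136886187, C1qc at 136889804 to 136893065 and C1qa at 136895917 to 136898803.

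Olanzapine was compared with the high fat diet alone to find the hypothalamic genes it changes. Most microglia genes were somewhat higher in OLZ than in CTRL mice, by a median log2 fold change of 0.28 (1.22-fold), against 0.00 for all genes of the table. The difference was above 0 for 32 of the 35 (91.4%), against 50.7% of all genes, and the exceptions were P2ry12, Siglech and Selplg. Only Ptprc and Tlr2 were called higher (5.71% of the members, with 1.82% of the table called higher), and no member was called lower. No member reached an adjusted p under 0.05, where the table had 2 genes (0.0125%). At an unadjusted p under 0.05, 5 members were higher, against 5.76% of the table, and none was lower. These were Ptprc, Tlr2, Itgam, Ctss and C1qc. The OLZ and CTRL mice did not overlap for 2 members, Tlr2 and C1qb, both higher in OLZ, against 3.64% of the table. The mean of 11 markers of tanycytes, another glial cell type, was also higher in all 4 OLZ mice (6.73 to 7.62 on the log2 scale) than in any CTRL mouse (5.18 to 5.99), and their part in the microglia result was not tested.

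Ptprc encodes CD45, a tyrosine phosphatase carried by all leukocytes. Its scaled counts were 63, 50, 57 and 53 in OLZ mice 13, 14, 17 and 19, against 30, 50, 25 and 25 in CTRL mice 3, 4, 5 and 11. OLZ mice were above 3 of the CTRL mice and at or above the level of CTRL mouse 4. Ptprc rose by 0.81 ± 0.24 on the log2 scale (SE, adjusted p = 0.242 by limma). Tlr2, a receptor for bacterial lipoproteins, had 40, 54, 33 and 40 scaled counts in the OLZ mice, against 26, 27, 19 and 18 in CTRL mice, without overlap. The rise was 0.86 ± 0.27 on the log2 scale, or 1.82-fold (SE, adjusted p = 0.243 by limma). Tlr2 is one of the genes that the study chose as an olanzapine signature on these libraries, so its value is not independent evidence. Both calls were lost at an adjusted p of 0.05. Leaving out any of CTRL mouse 3, CTRL mouse 11 or OLZ mice 13, 14 and 19 also left 0 members called. The table then had, in that order, 0.219, 0.231, 0.0125, 0.244 and 1.15% of its genes called in either direction, against 3.64% in the main fit. Without CTRL mouse 4 or OLZ+MINO mouse 48 there were 4 members, Ctss and Itgam being added, with 4.92 and 9.2% of the table called.

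Minocycline was added to olanzapine to see which of the gene expression changes of olanzapine it blocks. The microglia genes were lower in OLZ+MINO than in OLZ mice, with a median log2 fold change of -0.33 (0.797-fold) against 0.00 for all genes. The difference was below 0 for 30 of the 35 (85.7%), against 49.2% of all genes. The test called 12 of the 35 lower (34.3%), against 6.36% of the table, and none higher, where 5.99% of the table was. They were Fcrls, Tlr2, Ly86, Ctss, Tmem119, Itgam, Csf1r, C1qc, Laptm5, C1qb, Lyz2 and Olfml3. The groups did not overlap for 10 members that were lower, against 4.2% of the table. These were 8 of the 12 together with Gpr34 and Slc2a5. None of the members reached an adjusted p of 0.05, where the table had 54 genes (0.338%). At an unadjusted p under 0.05, 13 members were lower, against 7.68% of the table, and none was higher.

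**Figure D2:**
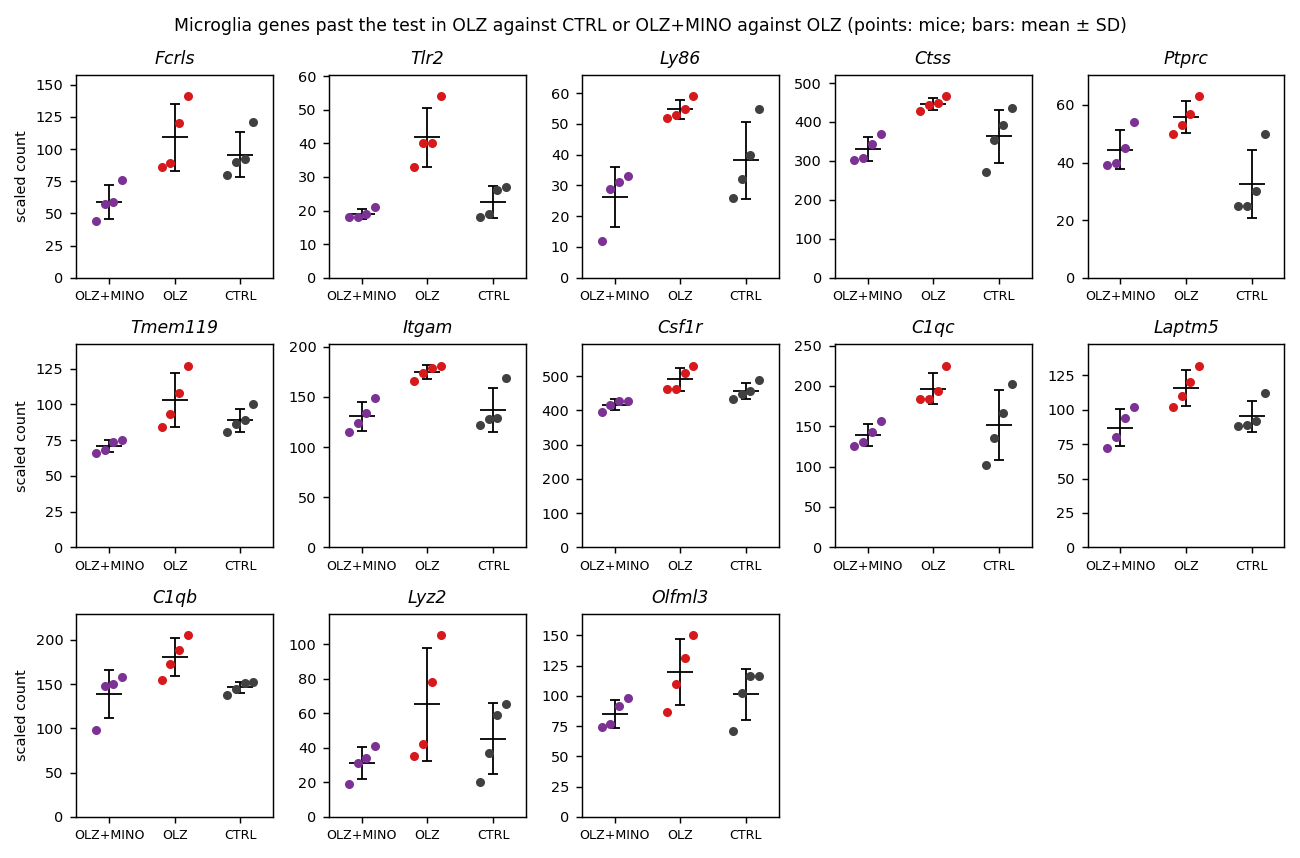
Scaled counts of the 13 microglia genes called in OLZ against CTRL or in OLZ+MINO against OLZ, each point a mouse, with the mean and SD of the 4 mice of a group, ordered by p. Fcrls, Tlr2, Ly86, Ctss, Tmem119, Itgam, Csf1r and C1qc do not overlap between OLZ+MINO and OLZ mice, while Laptm5, C1qb, Lyz2, Olfml3 and Ptprc do.

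Among the homeostatic surface and secreted genes, 3 of 6 fell, against 6.36% of the table. The groups by role hold 1 to 6 genes each, so at that share of the table a group with no call does not stand apart from other genes. Fcrls, a receptor of the Fc receptor-like family that marks microglia in mice, had 44, 59, 57 and 76 scaled counts in OLZ+MINO mice 37, 40, 47 and 48, against 141, 120, 89 and 86 in OLZ mice. CTRL mice had 80, 121, 90 and 92, so each OLZ+MINO mouse was also below each CTRL mouse. The fall against OLZ was -0.87 ± 0.21 on the log2 scale, or 0.547-fold (SE, adjusted p = 0.0919 by limma). Tmem119, a membrane protein of unclear function used to tell microglia from other macrophages, had 74, 68, 66 and 75 in OLZ+MINO mice, against 93, 108, 84 and 127 in OLZ and 100, 81, 89 and 86 in CTRL mice. It too lay below every CTRL mouse, and its log2 fold change against OLZ was -0.52 ± 0.16 (SE, adjusted p = 0.152 by limma). Olfml3, a secreted glycoprotein of microglia, had 98, 77, 74 and 92 in OLZ+MINO mice against 150, 110, 87 and 131 in OLZ mice, which overlap. It fell by 0.46 on the log2 scale (SE 0.20, adjusted p = 0.293 by limma). The other 3, Siglech, Selplg and the fructose transporter gene Slc2a5, had log2 fold changes of -0.03, 0.03 and -0.34.

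Csf1r, the receptor on which microglial survival depends, had 428, 395, 417 and 427 scaled counts in OLZ+MINO mice, against 509, 463, 462 and 530 in OLZ mice. The groups did not overlap, and the log2 fold change was the smallest of the 12, -0.23 ± 0.08 (SE, adjusted p = 0.182 by limma). CTRL mice had 488, 457, 432 and 447, above all OLZ+MINO mice and overlapping the OLZ mice. The TGF-β receptor gene Tgfbr1 and the G-CSF receptor gene Csf3r, which microglia share with other cells, had log2 fold changes of -0.16 and 0.05. None of the 4 purinergic, chemokine and lipid receptor genes was called. P2ry12, the ADP receptor that guides microglial processes, averaged 160 ± 11.4 scaled counts in OLZ+MINO, 180 ± 27.5 in OLZ and 188 ± 23.7 in CTRL mice (SD, n = 4 each). Cx3cr1, the receptor of neuronal fractalkine, averaged 201 ± 44.5 in OLZ+MINO, 226 ± 52.0 in OLZ and 207 ± 25.4 in CTRL mice. P2ry13 and the lysophosphatidylserine receptor gene Gpr34 had log2 fold changes of -0.33 and -0.42 in OLZ+MINO against OLZ, with adjusted p of 0.370 and 0.347 by limma.

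The transcription factors of microglia were not called in any comparison. Sall1, which maintains microglial identity, had 117, 122, 124 and 154 scaled counts in OLZ+MINO mice, 91, 129, 116 and 149 in OLZ mice and 138, 108, 96 and 112 in CTRL mice. These ranges overlap throughout, and the 95% interval of the log2 fold change in OLZ+MINO against OLZ ran from -0.25 to 0.46. Irf8 and Spi1, which specify the myeloid lineage, had log2 fold changes of 0.14 and -0.19 with SE of 0.38 and 0.46. Spi1 averaged only 12.5 scaled counts in OLZ+MINO, 15.8 in OLZ and 11.0 in CTRL mice, and the 95% interval of its log2 fold change in OLZ+MINO against OLZ ran from -1.17 to 0.78.

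C1q is the recognition molecule of the classical complement pathway that tags synapses and debris. Its 3 chains were all lower in OLZ+MINO than in OLZ mice, as were 49.2% of all genes. The test called 2 of them, where 6.36% of the table was called lower. C1qc had 143, 130, 126 and 156 scaled counts in OLZ+MINO mice against 225, 184, 194 and 184 in OLZ mice, with no overlap, and a log2 fold change of -0.50 ± 0.17 (SE, adjusted p = 0.204 by limma). C1qb had 150, 98, 158 and 148 in OLZ+MINO mice against 205, 189, 155 and 173 in OLZ mice, with OLZ+MINO mouse 47 just above OLZ mouse 17. Its log2 fold change was -0.40 ± 0.15 (SE, adjusted p = 0.237 by limma). C1qa had 179, 127, 203 and 175 in OLZ+MINO mice against 205, 169, 249 and 200 in OLZ mice, and its log2 fold change of -0.27 ± 0.17 was not called (SE, adjusted p = 0.483 by limma). In OLZ against CTRL the log2 fold changes of C1qa, C1qb and C1qc were 0.35, 0.30 and 0.41, none called. C1qb of the 4 OLZ mice lay above all CTRL mice, which had 138, 152, 151 and 144.

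Of 12 other measured genes of the classical complement pathway and its regulators, 1 rose in OLZ against CTRL, where 1.82% of the table did, with a median log2 fold change of 0.10. In OLZ+MINO against OLZ 3 of the 12 fell and 1 rose, against 6.36% and 5.99% of the table, with a median of -0.39. C4b, which C1q-bound proteases cleave, rose in OLZ against CTRL and fell in OLZ+MINO against OLZ. It averaged 402 ± 119 scaled counts in OLZ+MINO, 745 ± 90.5 in OLZ and 454 ± 89.1 in CTRL mice (SD, n = 4 each), with log2 fold changes of 0.73 (adjusted p = 0.169 by limma) and -0.93 (adjusted p = 0.0460 by limma). C3, the central component, fell in OLZ+MINO against OLZ by 1.33 on the log2 scale (adjusted p = 0.235 by limma). Csmd1, a neuronal inhibitor of complement, rose in that comparison by 0.22 (adjusted p = 0.283 by limma). Much of the C3 and C4b of the brain is known to come from astrocytes, and these genes are not members.

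None of the 4 genes of the Trem2 and Fc receptor complexes was called, where 6.36% of the table was called lower, and all 4 were below 0 in OLZ+MINO against OLZ with a median log2 fold change of -0.46. Trem2, a lipid receptor of microglia, had 65, 43, 35 and 27 scaled counts in OLZ+MINO mice, 45, 51, 49 and 48 in OLZ mice and 33, 42, 50 and 32 in CTRL mice, which overlap. Tyrobp, its adaptor, had 33, 30, 40 and 18 in OLZ+MINO, 39, 37, 42 and 44 in OLZ and 59, 29, 28 and 34 in CTRL mice. The log2 fold changes in OLZ+MINO against OLZ were -0.25 ± 0.26 and -0.46 ± 0.29 (SE). Fcer1g, the common chain of activating Fc receptors, and Fcgr3, such a receptor, had -0.69 and -0.45, with adjusted p of 0.407 and 0.313 by limma. Of 14 measured genes of the signalling downstream of Trem2, Csf1r and Fc receptors, 3 fell in OLZ+MINO against OLZ, against 6.36% of the table. Of the 14, 9 were below 0 and 5 above it, with a median log2 fold change of -0.06. Those that fell were the adaptor gene Lcp2 (-1.03 on the log2 scale), Pik3ap1, an adaptor of PI3K (-0.83), and the lipid phosphatase gene Inpp5d (-0.60), with adjusted p of 0.202, 0.285 and 0.125 by limma.

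Of the 5 integrins and leukocyte membrane proteins, 2, Itgam and Laptm5, fell in OLZ+MINO against OLZ, against 6.36% of the table. Itgam, which encodes CD11b of complement receptor type 3, had 149, 115, 134 and 124 scaled counts in OLZ+MINO mice against 166, 179, 174 and 181 in OLZ mice, without overlap. CTRL mice had 122, 169, 128 and 129, so that CTRL mouse 4 stood in the range of the OLZ mice. The log2 fold change in OLZ+MINO against OLZ was -0.43 ± 0.13 (SE, adjusted p = 0.154 by limma), and that in OLZ against CTRL 0.36 ± 0.13 (SE, adjusted p = 0.319 by limma). Laptm5, a lysosomal membrane protein of leukocytes, had 94, 72, 80 and 102 in OLZ+MINO mice and 110, 102, 120 and 132 in OLZ mice, touching at 102. It fell by 0.42 on the log2 scale (SE 0.16, adjusted p = 0.229 by limma). Ptprc had 39, 54, 40 and 45 in OLZ+MINO mice, which overlap the OLZ values given above, and its log2 fold change of -0.33 ± 0.24 was not called. Itgb2, the β chain that pairs with Itgam, and the tetraspanin gene Cd53 had log2 fold changes of -0.23 and 0.00.

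Of the 3 lysosomal genes, 2, Ctss and Lyz2, fell in OLZ+MINO against OLZ, against 6.36% of the table, and Cd68 was not called. Ctss had 369, 344, 308 and 302 scaled counts in OLZ+MINO mice against 449, 427, 466 and 443 in OLZ mice, and 391, 435, 353 and 272 in CTRL mice. The OLZ mice were all above the OLZ+MINO mice, with a log2 fold change of -0.44 ± 0.12, or 0.740-fold (SE, adjusted p = 0.133 by limma). Lyz2, lysozyme of myeloid cells, had 34, 41, 31 and 19 in OLZ+MINO mice against 105, 42, 35 and 78 in OLZ mice, with a wide spread among the OLZ mice. Its log2 fold change was -0.95 ± 0.40 (SE, adjusted p = 0.287 by limma), and its reads could be split with those of its close paralog Lyz1. Cd68, a scavenger receptor of lysosomes used as a sign of phagocytic activity, had 11, 26, 28 and 24 scaled counts in OLZ+MINO, 25, 31, 17 and 24 in OLZ and 40, 11, 25 and 25 in CTRL mice. Its values overlapped in all 3 groups. Aif1, which encodes the microglial stain Iba1, had 22, 8, 20 and 14 in OLZ+MINO, 25, 19, 14 and 22 in OLZ and 15, 15, 25 and 15 in CTRL mice, and was not called either.

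The largest falls among the 35 were of Ly86 and Tlr2. Tlr2 had 21, 18, 18 and 19 scaled counts in OLZ+MINO mice, all below the 33 to 54 of the OLZ mice, with a log2 fold change of -1.08 ± 0.27, or 0.474-fold (SE, adjusted p = 0.0965 by limma). As part of the signature chosen on these libraries it is again no independent evidence of direction. Ly86, which encodes MD-1, the partner of the Toll-like receptor homolog RP105, had 33, 31, 12 and 29 in OLZ+MINO mice against 59, 55, 52 and 53 in OLZ mice. CTRL mice had 40, 55, 26 and 32. Ly86 fell by 1.13 on the log2 scale, or 0.458-fold (SE 0.32, adjusted p = 0.132 by limma). Tlr7, a receptor for single-stranded RNA, had a log2 fold change of -0.16 ± 0.33 and overlapping values.

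The count of 12 falls depended on OLZ mouse 13. Without it the test called 1 member, Tlr2, and 1.17% of the table in place of 12.4%, while the median of the members was -0.28 and 30 of the 35 stayed below 0. Without OLZ+MINO mouse 40 there were 6 calls, with 4.15% of the table called in either direction. Without OLZ+MINO mouse 48 there were 7, with 3.48% of the table. Leaving out any other library gave 8 to 13, with 5.34 to 17.7% of the table. Tlr2 was called in each of these fits, and Fcrls, Tmem119, Ctss and Ly86 in all but the one without OLZ mouse 13. Besides that mouse, the call of Itgam was lost without OLZ+MINO mouse 40 or 48, that of C1qc without OLZ mouse 14 or OLZ+MINO mouse 40, and that of C1qb without OLZ mouse 14 or OLZ+MINO mouse 40 or 48. Csf1r was lost without OLZ mouse 19 or OLZ+MINO mouse 40 or 48, and Laptm5 without OLZ mouse 17 or 19 or OLZ+MINO mouse 40. Olfml3 stayed called only without CTRL mouse 5, OLZ mouse 17 or OLZ+MINO mouse 37, and Lyz2 only in those fits and without CTRL mouse 4.

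**Figure D3:**
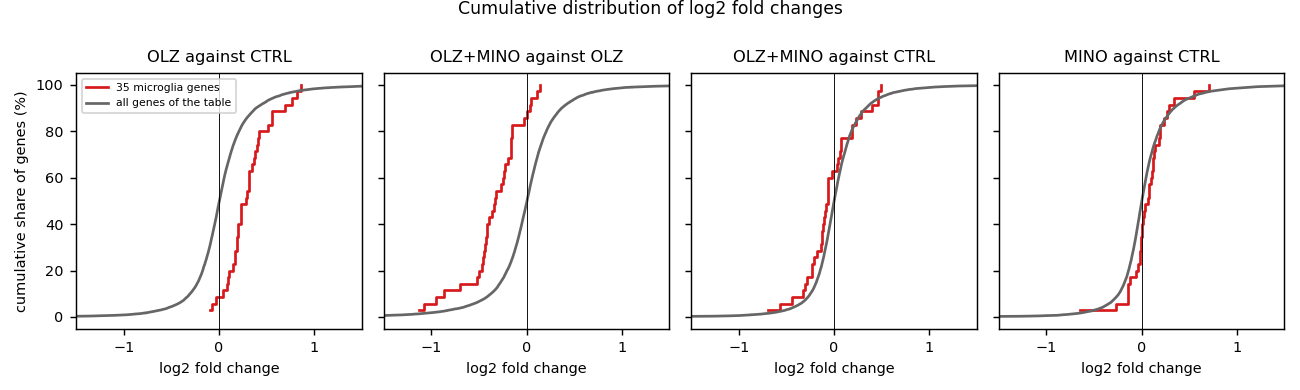
Cumulative share of genes by log2 fold change on the log2(scaled count + 1) scale, for the 35 microglia genes (red) and all genes of the table (grey), in each comparison. The red curve lies right of the grey one in OLZ against CTRL (median 0.28) and left of it in OLZ+MINO against OLZ (median -0.33), and close to it where OLZ+MINO or MINO mice are set against CTRL mice (medians -0.07 and 0.07).

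Compared with CTRL, the OLZ+MINO mice had 13 microglia genes higher and 22 lower, with 62.9% of the members below 0 against 49.8% of the table and a median log2 fold change of -0.07. None was called by limma, nor were more than 4 genes of the table (0.025%). At an unadjusted p under 0.05 there was 1 member, Fcrls, against 6.19% of the table. Its log2 fold change was -0.70 ± 0.21 (SE, adjusted p = 0.787 by limma). Fcrls, Tmem119 and Csf1r of the OLZ+MINO mice lay below those of all CTRL mice, against 1.47% of the table with such a pattern. The next largest differences were -0.57 for Ly86 and 0.49 for Ptprc, with adjusted p of 0.792 and 0.787 by limma.

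Minocycline alone was compared with CTRL to separate its own effect from that on olanzapine. No member was called by limma, nor was any (0%) of the 16005 genes of that table, of which 1026 (6.41%) had an unadjusted p under 0.05. The microglia genes were higher in 22 and lower in 13 cases (62.9% above 0, against 50.5% of the table), with a median log2 fold change of 0.07. Fcgr3, an activating receptor for IgG, was the one member with an unadjusted p under 0.05. It had 36, 48, 36 and 26 scaled counts in MINO mice 26, 31, 35 and 36, against 56, 62, 53 and 55 in CTRL mice. Each MINO mouse lay below every CTRL mouse, against 1.87% of the table, and the log2 fold change was -0.65 ± 0.23 (SE, adjusted p = 0.768 by limma). Itgb2 had the largest positive value, 0.70 ± 0.40 (SE), from 40, 39, 42 and 28 in MINO mice against 40, 15, 11 and 36 in CTRL mice, which overlap. Irf8 followed with 0.55 ± 0.38 (SE, adjusted p = 0.810 by limma). Csf1r averaged 500.5 ± 69.6 scaled counts in MINO and 458.5 ± 24.1 in CTRL mice, P2ry12 171 ± 17.9 in MINO and 190 ± 23.6 in CTRL mice, and Tlr2 27.2 ± 5.74 in MINO and 22.5 ± 4.65 in CTRL mice (SD, n = 4 each). The effect of minocycline with and without olanzapine was not tested as an interaction, since each test was kept within one table.

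Other lists of genes described for microglia, not among the 35, were also counted. How far the listed genes are particular to microglia in this tissue was not tested. The shares called over the table were 1.82% higher in OLZ against CTRL and 6.36% lower in OLZ+MINO against OLZ. Of 30 measured further homeostatic genes 1 rose in OLZ against CTRL, a share near that of the table, with a median log2 fold change of 0.20. In OLZ+MINO against OLZ 5 fell, with 23 of the 30 below 0, against 49.2% of the table, and a median of -0.25. The gene that rose was Itgb5, an integrin chain, which averaged 282 ± 12.8 scaled counts in OLZ+MINO, 390 ± 30.8 in OLZ and 318 ± 26.3 in CTRL mice (SD, n = 4 each). Its log2 fold changes were 0.30 in OLZ against CTRL and -0.47 in OLZ+MINO against OLZ, with adjusted p of 0.243 and 0.0460 by limma. The others that fell were the protease inhibitor gene Cst3 (-0.29), Pld4, a nuclease of endolysosomes (-0.73), Golm1 (-0.55) and Inpp5d. Inpp5d was also counted among the signalling genes above. Of 13 measured genes of disease-associated microglia none rose in OLZ against CTRL and 6 fell in OLZ+MINO against OLZ, with medians of 0.18 and -0.21. Among them were the lipid carrier gene Apoe (-0.32, adjusted p = 0.0728 by limma), and the cathepsin genes Ctsl (-0.32), Ctsz (-0.49) and Ctsd (-0.20). Apoe and Ctsd are also made by other brain cells, and 9 of the 22 genes of that list, Cst7, Itgax and Clec7a among them, were not in the table. Of 18 inflammatory cytokine and feedback genes 5 were measured, without Il1b, Tnf, Il6 or Ccl2. Socs3 alone was called, an inhibitor of cytokine signalling that many cell types make. It averaged 16.2 ± 6.90 scaled counts in OLZ+MINO, 57.0 ± 11.7 in OLZ and 18 ± 5.35 in CTRL mice. Its log2 fold changes were 1.63 in OLZ against CTRL and -1.81 in OLZ+MINO against OLZ, with adjusted p of 0.112 and 0.0431 by limma.

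Of the 12 measured ligands of microglial receptors, 2 rose in OLZ against CTRL, against 1.82% of the table, and 2 fell in OLZ+MINO against OLZ, against 6.36% of the table. The median log2 fold changes of the 12 were 0.06 and -0.05, near those of all genes. Csf1 and Il34, the ligands of Csf1r, had log2 fold changes of 0.18 and 0.21 in OLZ against CTRL and -0.20 and -0.05 in OLZ+MINO against OLZ, none called. Cx3cl1, the neuronal ligand of Cx3cr1, averaged 1285 ± 284 scaled counts in OLZ+MINO, 1134 ± 73.1 in OLZ and 1164 ± 85.5 in CTRL mice (SD, n = 4 each), which overlap. Tgfb1 and Tgfb2, ligands of the TGF-β receptor, had -0.20 and -0.12 in OLZ against CTRL and 0.28 and 0.11 in OLZ+MINO against OLZ. Pros1, a bridging ligand of Mertk, rose by 0.49 in OLZ against CTRL and fell by 0.60 in OLZ+MINO against OLZ, with adjusted p of 0.223 and 0.0845 by limma. Tgfb3 rose by 0.52 in OLZ against CTRL, and Apoe, given above, fell in OLZ+MINO against OLZ.

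Over all 35 genes, the mean of log2(scaled count + 1) was 6.03, 5.86, 5.95 and 5.86 in OLZ+MINO mice 37, 40, 47 and 48, against 6.39, 6.25, 6.16 and 6.29 in OLZ mice 13, 14, 17 and 19. CTRL mice 3, 4, 5 and 11 had 6.06, 6.04, 5.90 and 5.89. The OLZ mice were above all OLZ+MINO and CTRL mice, and OLZ mouse 13 was the highest. Tanycytes are glial cells of the ventricle wall next to the hypothalamus, and their markers were high in the same mice. The mean of 11 listed tanycyte markers was 5.09 to 5.85 in OLZ+MINO, 6.73 to 7.62 in OLZ and 5.18 to 5.99 in CTRL libraries, and OLZ mouse 13 was again the highest. Of these 11, 8 rose in OLZ against CTRL, against 1.82% of the table. In OLZ+MINO against OLZ 9 fell, against 6.36% of the table. The part of the tanycyte markers in the results of the microglia genes was not tested. In the table of MINO and CTRL, MINO mice 31 and 35 had tanycyte means of 6.95 and 7.21 and microglia means of 6.12 and 6.21, above all CTRL mice in both, while MINO mice 26 and 36 had tanycyte means of 6.17 and 5.82 and microglia means of 6.02 and 5.83. The CTRL mice of that table had 5.18 to 6.01 for tanycytes and 5.89 to 6.06 for microglia.

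**Figure D4:**
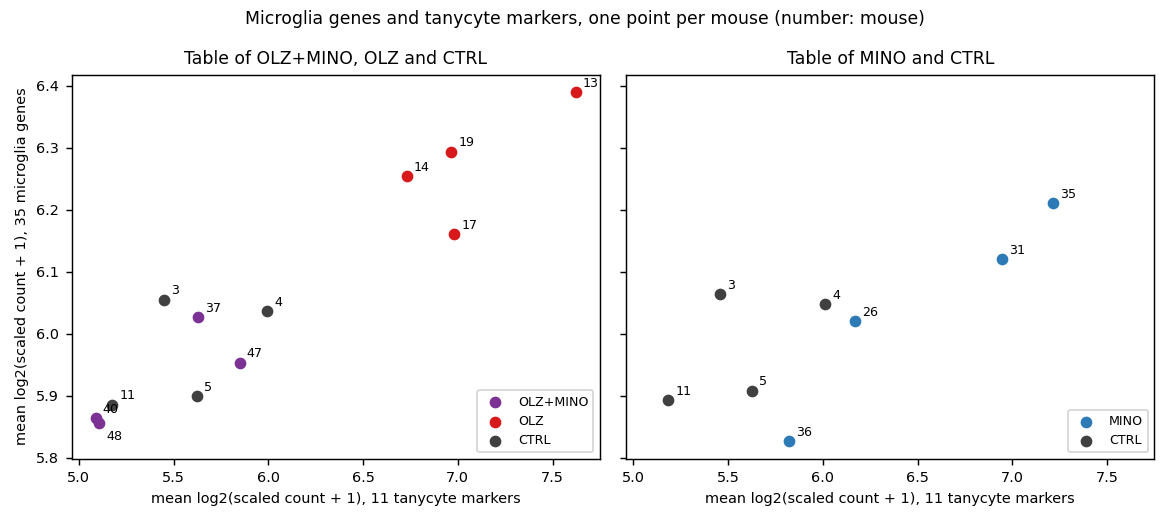
Mean log2(scaled count + 1) of the 35 microglia genes against that of 11 tanycyte markers, each point a mouse with its number, for the table of OLZ+MINO, OLZ and CTRL and that of MINO and CTRL. The 4 OLZ mice lie at the upper right, with tanycyte means of 6.73 to 7.62, and MINO mice 31 and 35 lie highest in the second table.

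Markers of other cell types were counted in the same way, where 1.82% of the table was called in each direction in OLZ against CTRL, and 5.99% higher and 6.36% lower in OLZ+MINO against OLZ. Markers of the macrophages of brain borders had medians at least as far from 0 as those of the microglia genes (0.28 and -0.33). All 8 listed were above 0 in OLZ against CTRL, with a median log2 fold change of 0.39 and none called. In OLZ+MINO against OLZ 6 of the 8 were below 0, with a median of -0.39, and 1 fell, the antigen presentation gene Cd74. All 7 markers of meninges and fibroblasts were above 0 in OLZ against CTRL (median 0.63) and 6 of 7 below 0 in OLZ+MINO against OLZ (median -0.55), none called. They summed to 290 to 553 scaled counts in OLZ+MINO mice, to 1109, 413, 288 and 1496 in OLZ mice 13, 14, 17 and 19, and to 371 to 440 in CTRL mice, so that OLZ mice 13 and 19 stood apart.

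Of 4 listed markers of pituitary and pars tuberalis 1 rose in OLZ against CTRL (median 1.92) and fell in OLZ+MINO against OLZ (median -0.96). It was Pomc, a hormone precursor gene of the pituitary that neurons of the hypothalamus also express. Neuronal and oligodendrocyte markers mostly moved opposite to the microglia genes. Of 9 neuronal markers 8 were below 0 in OLZ against CTRL (median -0.21), and 2 fell, against 1.82% of the table. In OLZ+MINO against OLZ 8 were above 0 (median 0.27), and 6 rose, against 5.99% of the table. All 8 oligodendrocyte markers were below 0 in OLZ against CTRL (median -0.24), none called. All 8 were above 0 in OLZ+MINO against OLZ (median 0.49), and 4 rose. Of 5 markers of their precursors 1, Pdgfra, fell in OLZ+MINO against OLZ, against 6.36% of the table. Of 8 astrocyte markers 1 rose in OLZ against CTRL and 2 fell in OLZ+MINO against OLZ. No marker of endothelium and mural cells (9 listed) or of erythrocytes (5 listed) was called in either comparison. The part of these cell types in the results of the microglia genes was not tested.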

How the data were processed

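Hypothalamic RNA of 16 mice was sequenced by the authors from TruSeq libraries. Per the labels and the study's methods the reads were mapped with Bowtie2, counted per gene with RSEM and analysed with limma. The build, as named in the submitters' notes, was mm9. Tool versions, the method of scaling and any low-value filter were not given in the sources used here. What the authors deposited is a scaled signal in 2 tables that were scaled separately, in which each library's read counts carry a common factor and appear as whole numbers. Depth estimated from the steps in these values was 8000000 to 9740000 reads a library. No estimate was obtained for OLZ+MINO mice 40 and 48, nor for CTRL mouse 4 in the table of 3 groups. Since rounding hides single reads, count tests were not used. The deposited tables also hold the authors' group means, ratios, fold changes and false discovery rates, which were not used. A further sheet repeats 6 genes of the second table and was not used, and 23 symbols per table that had become dates are not named.

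The scaled values were tested as log2(value + 1) in R 4.3.3 with the package limma 3.58.1, using lmFit and then eBayes with its trend option. OLZ+MINO, OLZ and CTRL entered one fit and MINO and CTRL a second, with Benjamini-Hochberg adjustment over all genes of a table. Genes needed a mean of at least 1 in a group, which removed 0. A gene was called at an adjusted p under 0.3. The study put the same figure on a false discovery rate, and its methods name both a local rate, a different quantity, and a q value. The added 1 makes the fold changes of low genes smaller than they are. With 4 mice against 4 the exact two-sided permutation test cannot give p below 0.0286. The members, lists and alternatives were chosen with earlier results of these data known. The text names 15 members of known role, every called member, in each comparison the 3 members of smallest p and the 2 of largest log2 fold change, and at most 4 genes of another list a comparison together with the ligands Csf1, Il34, Cx3cl1, Tgfb1 and Tgfb2. Further members are given as part of their role group. Positions and exon lengths come from GENCODE M21 (GRCm38) and promoters from RefSeq (GRCm38.p6), and none entered a test. One gene of the complement list is not reported here. Alternatives were 3 other scalings, pseudocounts of 0.1 and 5, no filter or a minimum mean of 50, no trend, array quality weights, only the compared groups, a threshold of 0.05 and leaving out each library.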

Additional observations from a re-analysis of the deposited data

Results flagged for a closer look

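Of 140 groups of 4 values (35 genes in OLZ+MINO, OLZ, CTRL and MINO mice), 8 held a mouse far from the other 3 by Dixon's criterion, where chance gives about 1 in 20. In OLZ+MINO mouse 40 C1qb was at 98 scaled counts against 148 to 158 in the others, and in OLZ mouse 13 Selplg was at 98 against 69 to 70. CTRL mouse 4 had 169 for Itgam, against 122 to 129 in the other CTRL mice, and 112 for Laptm5, against 88 to 92. Aif1 was at 25 in CTRL mouse 5 and at 15 in each of the others. MINO mouse 35 had 207 for C1qa, against 166 in each of the others. MINO mouse 36 was low, with 24 for Tyrobp against 40 to 43, and 9 for Fcer1g against 15 to 16.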

How the results depend on the processing

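No alternative reversed the direction of a called gene or of the median of the microglia genes in OLZ against CTRL or OLZ+MINO against OLZ. The median without each library ran from 0.24 to 0.31 in OLZ against CTRL and from -0.37 to -0.28 in OLZ+MINO against OLZ. The median of MINO against CTRL, 0.07, was -0.04 without MINO mouse 35. The 2 members called higher in OLZ against CTRL were 5 with equal totals without mitochondrial genes, 4 in a fit of only the compared groups, also 4 with array quality weights, 1 at a minimum mean of 50 (Itgam) and 0 at a threshold of 0.05, and leaving out each library gave 0 to 4. The 12 called lower in OLZ+MINO against OLZ were 0 at a threshold of 0.05, 1 to 13 when leaving out each library and 9 to 12 otherwise. Lyz2 was lost with array quality weights, C1qb with only the compared groups, and both, with Olfml3, without the trend. The cause of these shifts was not tested, apart from the minimum mean of 50, which left 20 members. Over the table, 582 genes were called in OLZ against CTRL (291 higher, 291 lower), against 902 with equal totals without mitochondrial genes (694 higher, 208 lower), 193 without the trend, 1652 with array quality weights, 1559 with only the compared groups and 2 to 1470 when leaving out each library. In OLZ+MINO against OLZ 1974 were called, against 1023 without the trend and 187 to 2834 when leaving out each library. With 4 mice a group and 16 members under 50 scaled counts in CTRL, a member that was not called is not shown to be unchanged. No paired analysis was possible because the mouse numbers differ between groups. DESeq2 was not run because the values are not counts.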
